A study of Mus musculus with 4 samples.

Results

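The 10 genes described here, Egr1, Ier2, Ier3, Ier5, Nr4a1, Btg2, Klf2, Klf6, Zfp36 and Csrnp1, are immediate early genes that do not encode subunits of the transcription factor AP-1. They were chosen by gene symbol, with earlier results of these data known, and all 10 were found among the 17823 genes with values in blood RNA-seq. The gene lists set beside them were chosen in the same way. Counts given against all tested genes therefore describe the members and lists and are not an independent test. The libraries came from the blood of C57BL/6 mice, called adult in the sample labels and aging in the study. The mice received naringenin (Nar, a flavonoid), injected into the tail vein, or the same volume of phosphate-buffered saline (Ctrl), for 30 days. There were 2 libraries per group, numbered 1 and 3 in each. No other allele or agent was named for either group. Each library was whole-blood RNA selected with oligo(dT) beads, so fewer cells of a type and less RNA per cell cannot be told apart in any value below. Nothing in the sources used here states how many mice gave each library, and p-values measure the spread between these libraries only. For the limma p-values that spread is taken partly from the gene itself and partly from all genes tested.

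Immediate early genes are transcribed within minutes of a signal, without new protein being made first. Growth factors, antigen, cytokines and stress reach them through kinase cascades that act on factors already bound at their promoters, such as serum response factor with its ETS partners, and CREB. Their mRNAs are usually short-lived, so their level follows the signal closely. In blood they are best known from leukocytes, where some act as transcription factors (Egr1, Nr4a1, Klf2, Klf6, Csrnp1), some shorten the life of other mRNAs (Zfp36, Btg2), and others modulate stress and survival signalling (Ier3, Ier5).

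The promoters of 8 of the 10 genes, all but Ier2 and Egr1, were taken from RefSeq on build GRCm38.p6. The 250 bases upstream of the start were searched on both strands. The full CRE, the site of CREB (TGACGTCA), was in Btg2 alone of the 8 and in 1.55% of 32851 promoters in the table. Its shorter core (TGACG), which the full site contains, was in Nr4a1, Btg2, Klf2 and Csrnp1 and in 17.8% of all promoters. The CArG box, the site of serum response factor, was in Zfp36 alone and in 1.47% of all promoters. The AP-1 site (TGANTCA) was in Csrnp1 alone, which has 4 promoters in the table, and in 6.75%. The GC box (GGGCGG) was in all 8 and in 32.7%, and the CCAAT box (CCAAT) in 5 of the 8 and in 33.8%. The TATA box as TATAAA was in none of the 8 windows and in 12.4% of all promoters. Only this exact word was searched, and close variants, as in Ier3 and Klf2 below, were not counted. A match in this window describes the letters and not a bound site.

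The upstream sequences below show the gene with the highest control level and a steep fall (Zfp36), another steep one with neither a CArG box nor a CRE in this window (Ier3), the gene with the most unequal controls (Nr4a1), the gene with the full CRE (Btg2) and the gene nearest to the typical gene among those tested (Klf2). Capitals mark every match to the motifs named above, and in Zfp36 the GC box and the CArG box share a base.
Zfp36, chr7:28379229-28379478, minus strand: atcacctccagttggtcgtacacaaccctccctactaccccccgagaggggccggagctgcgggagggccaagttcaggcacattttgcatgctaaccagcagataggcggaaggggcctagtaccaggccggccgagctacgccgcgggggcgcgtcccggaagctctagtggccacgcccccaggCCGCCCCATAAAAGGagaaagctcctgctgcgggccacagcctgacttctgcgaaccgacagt
Ier3, chr17:35821463-35821712, plus strand: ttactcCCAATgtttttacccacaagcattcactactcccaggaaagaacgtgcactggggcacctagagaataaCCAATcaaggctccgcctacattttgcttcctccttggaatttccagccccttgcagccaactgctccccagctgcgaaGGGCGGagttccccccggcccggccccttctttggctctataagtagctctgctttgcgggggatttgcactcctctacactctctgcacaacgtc
Nr4a1, chr15:101266596-101266845, plus strand: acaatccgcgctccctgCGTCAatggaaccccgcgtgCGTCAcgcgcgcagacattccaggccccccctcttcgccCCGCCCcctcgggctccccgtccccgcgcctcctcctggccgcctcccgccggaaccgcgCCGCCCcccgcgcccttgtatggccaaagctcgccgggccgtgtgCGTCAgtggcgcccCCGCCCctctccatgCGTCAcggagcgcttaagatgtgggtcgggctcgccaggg
Btg2, chr1:134079156-134079405, minus strand: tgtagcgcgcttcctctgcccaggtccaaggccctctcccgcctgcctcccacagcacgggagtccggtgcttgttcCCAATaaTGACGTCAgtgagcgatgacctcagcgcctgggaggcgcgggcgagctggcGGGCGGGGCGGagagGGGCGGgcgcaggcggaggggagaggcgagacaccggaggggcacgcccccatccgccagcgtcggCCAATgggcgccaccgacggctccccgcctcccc
Klf2, chr8:72318812-72319061, plus strand: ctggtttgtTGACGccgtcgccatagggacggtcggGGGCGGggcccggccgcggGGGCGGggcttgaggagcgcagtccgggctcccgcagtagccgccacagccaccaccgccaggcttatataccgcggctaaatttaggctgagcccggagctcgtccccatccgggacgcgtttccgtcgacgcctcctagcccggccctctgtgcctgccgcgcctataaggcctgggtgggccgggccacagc

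Expression is given as deposited, in FPKM, the number of fragments per kilobase of a gene's transcript divided by the total mapped in that library. Haemoglobin genes took 92.6% to 95.1% of the FPKM sum in Ctrl and 95.7% to 96.4% in Nar, and all other genes share the rest. The typical gene was lower in Nar on this scale. The median log2 fold change (Nar minus Ctrl, on log2(FPKM + 0.1)) was -1.07 over the 5339 genes whose mean FPKM reached 0.5, and these were the genes tested with limma. Changes below are set against that median, as a distance in log2 units from the typical gene. Median-of-ratios scaling, in which libraries are aligned on their typical gene, moved the median by 1.07 to about 0. With haemoglobin genes removed and each library rescaled to its former sum, the median was -0.56 over 5329 genes. Markers of circulating cells were present, while 6 markers of vessel wall and connective tissue summed to 0.24 to 0.29 FPKM in Ctrl and 0.11 to 0.18 in Nar, with 1 of the 6 at 0 throughout.

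All 10 genes were lower in both Nar libraries than in both Ctrl libraries, where 78.3% of all tested genes were. By group means of log2(FPKM + 0.1) all 10 were more than 2-fold lower, as were 56.4% of tested genes. Of the 9 that reached the filter, 7 fell with a limma adjusted p-value under 0.05 (Zfp36, Ier3, Ier2, Csrnp1, Klf6, Btg2 and Ier5), where 39.6% of all tested genes did. Klf2 and Nr4a1 did not pass, and Egr1 was too low to be tested. Summed over the 10 genes, FPKM came to 77.6 and 51.8 in Ctrl and to 13.7 and 13.2 in Nar. The median log2 fold change of the 10 genes was -1.83, which is -0.76 relative to the typical gene, and this difference was -0.40 without Ctrl 1 and -1.27 without Ctrl 3. A fall more than 2-fold beyond the typical gene was seen for 4 of the 10, Zfp36, Ier3, Ier2 and Csrnp1, and for 6.46% of all tested genes. With a pseudocount of 1 it was seen for 2 of the 10 and 3.03%, without Ctrl 3 for 6 of the 10 and 11.1%, and without the filter on low values, where the median of all genes was -0.57, for 7 of the 10 and 7.03%. The count of 7 changed with every library left out, and so did that over all genes. Without Ctrl 1 or without Ctrl 3 limma passed 0 of the 9 and 0 of the 5339 genes, with 8 members at an unadjusted p-value under 0.05 in each case, against 50.2% and 40.0% of all tested genes. Without Nar 1 it passed 3 members and 4.76% of all tested genes as lower, and without Nar 3 it passed 3 and 3.99%. In each of these fits 1 group holds a single library, which is assumed to vary like the other group, so the lost calls do not bear on the members in particular. On median-of-ratios scaling limma also passed 0 of the 9, where 0.599% of all tested genes were lower past the threshold. There 4 of the 9 had an unadjusted p-value under 0.05, against 14.9% of all tested genes, and 6 of the 10 genes lay lower in both Nar libraries, against 20.8% of tested genes.

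**Figure D1:**
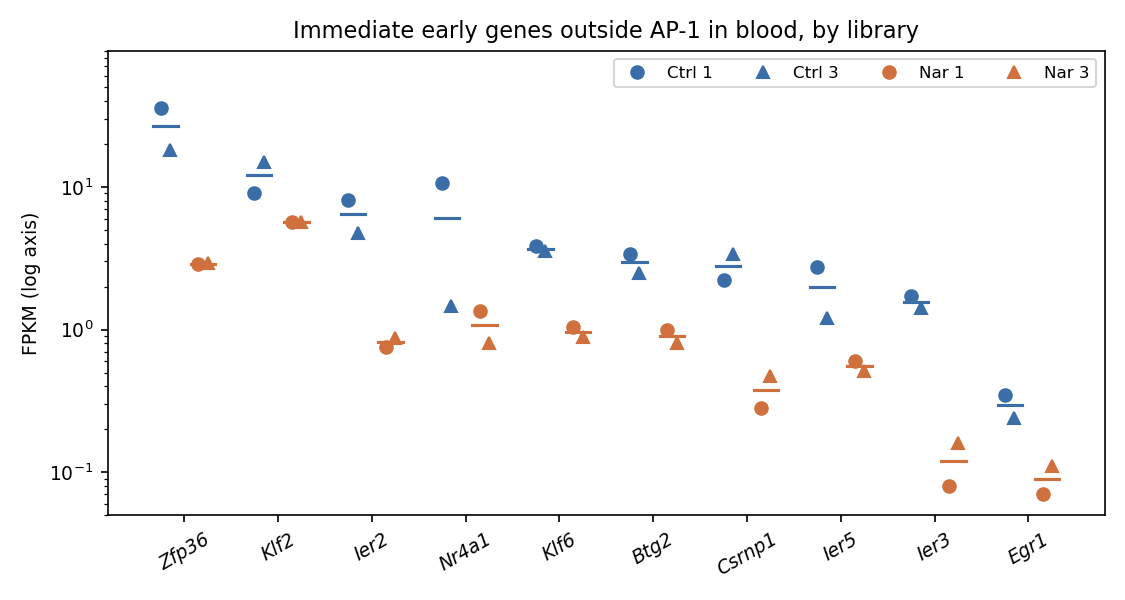
FPKM (log axis) of each gene in the 2 Ctrl (blue) and 2 Nar (orange) libraries, circles for number 1 and triangles for number 3, with bars at the group means. Both Nar points lie below both Ctrl points for all 10 genes, with the narrowest gap at Nr4a1 (1.46 in Ctrl 3, 1.36 in Nar 1).

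The mRNA decay factors moved by different amounts. Zfp36 encodes tristetraprolin, a zinc finger protein that binds AU-rich elements in cytokine mRNAs and brings in the CCR4-NOT deadenylase. Zfp36 (NCBI Gene 22695, chr7:28376784-28379228) had an FPKM of 35.5 in Ctrl 1 and 18.2 in Ctrl 3, against 2.86 in Nar 1 and 2.93 in Nar 3. The controls differed by 1.95-fold, the Nar libraries were nearly equal, and the lowest control was 6.23 times the higher Nar library. Its log2 fold change was -3.09 with a standard error of 0.512 (limma adjusted p = 0.00658). It was the lowest of the 10 on this scale and lay 2.02 below the typical gene. Ier3 was lower than Zfp36 with a pseudocount of 0.01 (-3.66 against -3.13), with haemoglobin genes removed (-3.12 against -2.51), without Ctrl 1 (-2.80 against -2.61), without Nar 3 (-3.20 against -3.11) and on the scalings to the median of ratios, Ptprc and neutrophil markers. Without Ctrl 1 Csrnp1 was lower than both, at -2.89. Among tested genes, 1.39% had a lower log2 fold change. On median-of-ratios scaling it was -1.94 (limma adjusted p = 0.0969).

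Btg2, an antiproliferative protein that also recruits CCR4-NOT (NCBI Gene 12227, chr1:134074865-134079155), had an FPKM of 3.41 and 2.51 in Ctrl and of 1 and 0.81 in Nar. The groups were separated by 2.51-fold between the lowest control and the highest Nar library. Its log2 fold change was -1.60 (standard error 0.371, limma adjusted p = 0.0188), and it lay 0.52 below the typical gene. On median-of-ratios scaling it was -0.50 (limma adjusted p = 0.669).

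The IER genes carry the name immediate early response and encode unrelated or loosely related proteins. Ier3, also known as IEX-1, modulates apoptosis and NF-kappaB and ERK signalling. Ier3 (NCBI Gene 15937, chr17:35821713-35822911) had an FPKM of 1.72 in Ctrl 1, 1.41 in Ctrl 3, and 0.08 in Nar 1 with 0.16 in Nar 3. The controls agreed closely, and their lower value was 8.81 times the higher Nar value, the widest separation of the 10 genes. The log2 fold change was -2.94 (standard error 0.418, limma adjusted p = 0.00448), 1.87 below the typical gene. It was -1.19 with a pseudocount of 1 and -3.66 with a pseudocount of 0.01. Ier3 was close to the detection limit in Nar. From its transcript length of 1131 bases and the step between low values in each library, the FPKM of Ier3 corresponded to about 40.1 and 33.9 fragments in Ctrl and to about 2.01 and 3.89 in Nar.

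Ier2, a nuclear protein induced by growth factors (NCBI Gene 15936, chr8:84661331-84662852), had an FPKM of 8.06 and 4.77 in Ctrl and of 0.76 and 0.87 in Nar. Both Nar libraries were low and alike, and the lower control was 5.48 times the higher of them. The log2 fold change was -2.79 (standard error 0.417, limma adjusted p = 0.0051), 1.71 below the typical gene. With about 253 and 154 fragments in Ctrl and 25.7 and 28.5 in Nar, Ier2 was measured with more fragments than Ier3.

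Ier5, which takes part in the heat shock response (NCBI Gene 15939, chr1:155096367-155099636), had an FPKM of 2.74 and 1.21 in Ctrl and of 0.6 and 0.51 in Nar. The controls differed by 2.26-fold, more than the gap of 2.02-fold between the groups. Its log2 fold change was -1.56 with a standard error of 0.427 (limma adjusted p = 0.0264). It lay 0.49 below the typical gene. With a pseudocount of 1 the log2 fold changes were -0.89 for Ier5 and -1.05 for Btg2. That of Ier5 was -1.003 without Ctrl 1 and -0.51 on median-of-ratios scaling (limma adjusted p = 0.754). With haemoglobin genes removed Ier5, Btg2 and Klf6 no longer passed (limma adjusted p = 0.314, 0.248 and 0.141).

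Among the transcription factors, Csrnp1 had the lowest log2 fold change with all 4 libraries, while without Ctrl 3 that of Nr4a1 was lower (-3.21 against -2.33). Csrnp1 encodes a cysteine- and serine-rich nuclear protein, and its gene (NCBI Gene 215418) lies at chr9:119971163-119984742. Csrnp1 had an FPKM of 2.24 and 3.36 in Ctrl and of 0.28 and 0.47 in Nar. In both groups library 3 was the higher, and the lower control was 4.77 times the higher Nar library. The log2 fold change was -2.61 (standard error 0.384, limma adjusted p = 0.00488), 1.54 below the typical gene, and -1.45 with a pseudocount of 1.

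Klf6, a Krüppel-like zinc finger factor (NCBI Gene 23849, chr13:5861489-5870393), had an FPKM of 3.84 and 3.54 in Ctrl and of 1.05 and 0.88 in Nar. It was the steadiest of the 10 in Ctrl, where the libraries differed by 1.08-fold, against 3.37-fold between the groups. Its log2 fold change was -1.83 (standard error 0.367, limma adjusted p = 0.0122), 0.76 below the typical gene. On median-of-ratios scaling it was -0.73 (limma adjusted p = 0.386).

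Klf2, the Krüppel-like factor that holds lymphocytes in a resting state, had a log2 fold change close to that of the typical gene. Klf2 (NCBI Gene 16598, chr8:72319062-72321654) had an FPKM of 9.13 in Ctrl 1, 15.0 in Ctrl 3 and 5.63 in both Nar libraries. The groups did not overlap, but the gap of 1.62-fold between them was about as wide as the 1.65-fold between the controls. Its log2 fold change was -1.04 with a standard error of 0.486 (limma adjusted p = 0.0996). It lay at the median of all tested genes, with 52.2% of them lower. Without Ctrl 3 it was -0.69. On median-of-ratios scaling the sign turned, to 0.12 (limma adjusted p = 0.978). Among genes known as Klf2 targets in lymphocytes, the integrin Itgb7 fell by 1.32 on the log2 scale (limma adjusted p = 0.0457). The lymphocyte egress receptor S1pr1 had a log2 fold change of -0.45 (limma adjusted p = 0.277), and these came to -0.19 for Itgb7 and 0.62 for S1pr1 on median-of-ratios scaling.

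Nr4a1, the orphan nuclear receptor Nur77 that reports antigen receptor signalling (NCBI Gene 15370, chr15:101253902-101274795), differed most between the controls. Its FPKM was 10.6 in Ctrl 1 but 1.46 in Ctrl 3, and 1.36 in Nar 1 against 0.81 in Nar 3. Ctrl 1 was 7.26 times Ctrl 3, while Ctrl 3 was only 1.07 times Nar 1. A gap between controls at least as large was found for 0.412% of all tested genes. The log2 fold change was -1.83 with a standard error of 0.767 and did not pass (limma adjusted p = 0.0775). It depended on 1 library, being -0.44 without Ctrl 1 (limma adjusted p = 0.447) and -3.21 without Ctrl 3 (limma adjusted p = 0.0871).

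Egr1, a zinc finger factor and a classic serum response gene (NCBI Gene 13653, chr18:34861207-34864956), was the lowest of the 10 and had a mean of 0.193 FPKM. Its FPKM was 0.35 and 0.24 in the Ctrl libraries 1 and 3, and 0.07 and 0.11 in the same-numbered Nar libraries. The groups did not overlap, and the lower control was 2.18 times the higher Nar library. On log2(FPKM + 0.1) the change was -1.05, which understates it at such low values. It was -1.61 with a pseudocount of 0.01 and -0.25 with a pseudocount of 1.

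**Figure D2:**
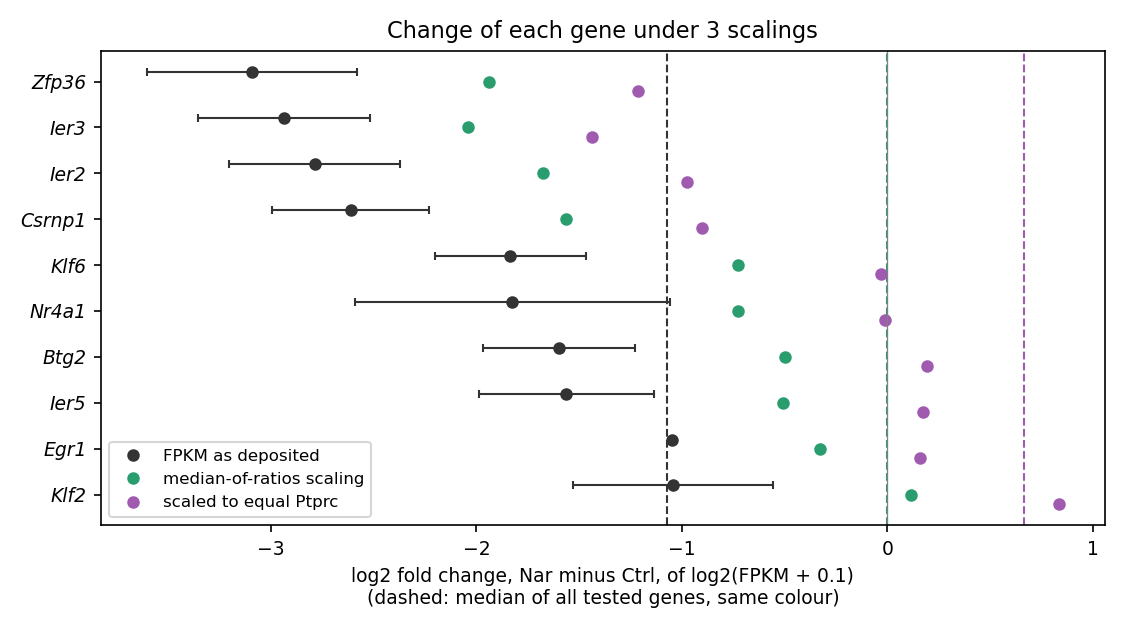
Log2 fold change (Nar minus Ctrl) of each gene with FPKM as deposited (black, bars show the limma standard error), after median-of-ratios scaling (green) and after scaling to equal Ptprc (purple). Dashed lines mark the median of all tested genes in each scaling. Zfp36, Ier3, Ier2 and Csrnp1 lie over 1.5 to the left of the black line, while Egr1, which has no error bar because it was not tested, and Klf2 lie on it.

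**Figure D3:**
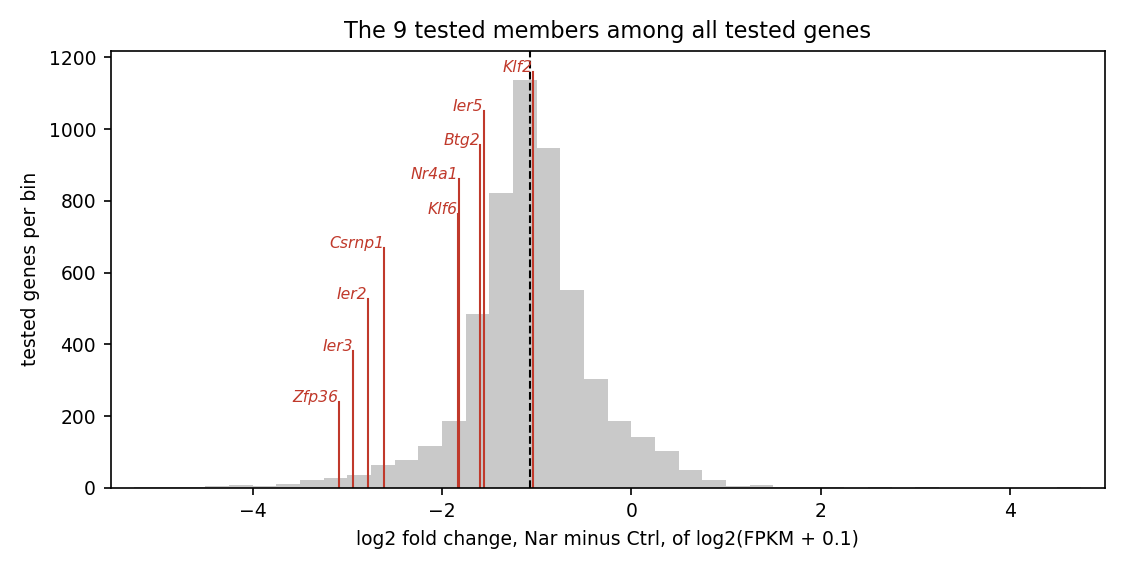
Number of tested genes (vertical axis) by log2 fold change, Nar minus Ctrl, for all 5339 tested genes, with red lines at the 9 tested members and a dashed line at the median of -1.07. The labels stand at different heights only to be legible. Zfp36, Ier3, Ier2 and Csrnp1 lie in the left tail, where 1.39% to 2.70% of tested genes are lower, and Klf2 lies at the median.

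The levels of the 10 genes, compared per kilobase as FPKM, also changed order. In Ctrl, Zfp36 was the highest with a mean of 26.9 FPKM, followed by Klf2 (12.1), Ier2 (6.42), Nr4a1 (6.03), Klf6 (3.69), Btg2 (2.96), Csrnp1 (2.8), Ier5 (1.98), Ier3 (1.57) and Egr1 (0.295). The values of Zfp36, Klf2 and Ier2 did not overlap with each other in Ctrl. Nr4a1, with an SD of 6.46 (n = 2), overlapped with both its neighbours, Ier2 and Klf6. From Btg2 down to Ier3 each gene overlapped with the next, and Egr1 was apart from all others. In Nar, Klf2 was the highest with 5.63, followed by Zfp36 with 2.90 ± 0.0495 (SD, n = 2). Below them Nr4a1 (1.09), Klf6 (0.965), Btg2 (0.905) and Ier2 (0.815) were within 0.389 (the SD of Nr4a1, n = 2) of each other. Zfp36 made up 45.7% and 35.2% of the summed FPKM of the 10 genes in Ctrl and 20.9% and 22.2% in Nar. Klf2 made up 11.8% and 29.0% in Ctrl and 41.1% and 42.7% in Nar.

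A ratio of 2 genes within a library does not depend on how that library was scaled. The ratio of Klf2 to Zfp36 was 0.257 and 0.824 in Ctrl and 1.97 and 1.92 in Nar. Zfp36 was thus above Klf2 in both controls and below it in both Nar libraries. The other pair whose order turned in this way was Ier2 over Klf6, at 2.10 and 1.35 in Ctrl and 0.724 and 0.989 in Nar. Both pairs were picked out after all 45 pairs had been computed. In 24 of the 45 the ratios of the groups did not overlap, as in 45.2% of all pairs of tested genes with values above 0 in every library. The count for the members is thus near that of genes in general, and the smallest two-sided p that the exact permutation test can give with 2 libraries against 2 is 0.333 before any adjustment.

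**Figure D4:**
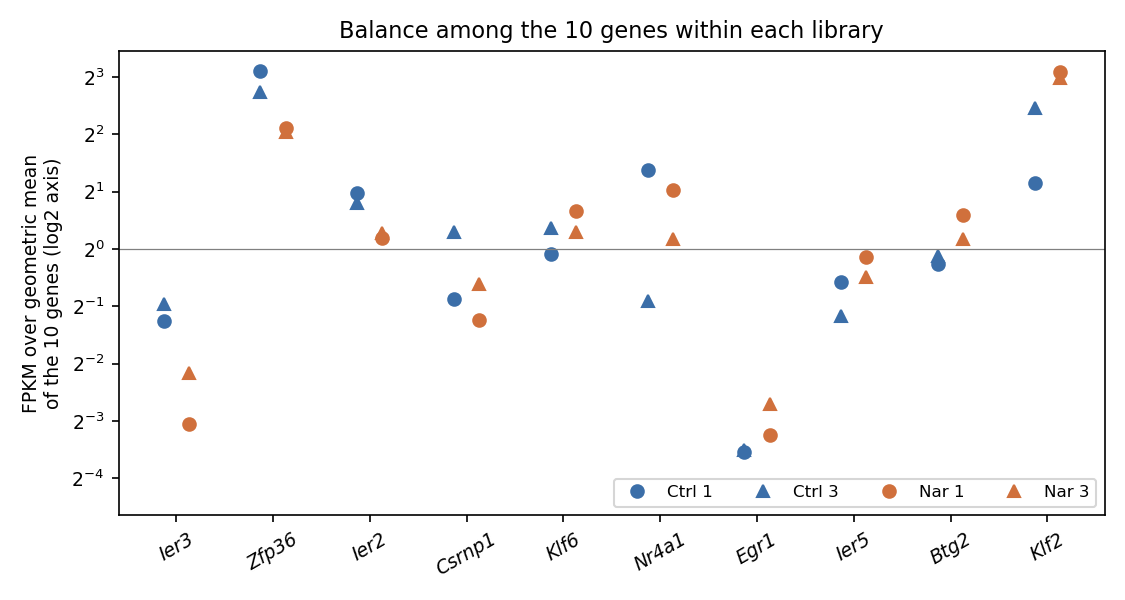
FPKM of each gene divided by the geometric mean of the 10 genes in the same library (log2 axis), Ctrl in blue and Nar in orange, circles for number 1 and triangles for number 3. Ier3, Zfp36 and Ier2 have both Nar points below both Ctrl points, Klf2, Btg2, Ier5 and Egr1 have them above, and Csrnp1, Klf6 and Nr4a1 overlap. The divisor is made of these same 10 genes, which all fell in FPKM. Nar points above Ctrl points thus mark a smaller fall than that of the 10 together and not a rise. Each separation has an exact permutation p of 0.333, the smallest possible, and ratios separated in 45.2% of all pairs of tested genes.

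Markers of several blood cell types moved with the members. Ptprc, the gene of the pan-leukocyte protein CD45, had an FPKM of 18.1 and 9.29 in Ctrl and of 4.81 and 2.49 in Nar (log2 fold change -1.88, limma adjusted p = 0.0309). With each library scaled to equal Ptprc, limma passed 0 of the 9 members, where 0.131% of all tested genes were lower past the threshold, and 1 had an unadjusted p-value under 0.05, against 6.41% of all tested genes. Both Nar libraries then lay below both Ctrl libraries for 3 of the 10, Zfp36, Ier3 and Ier2, where 4.18% of tested genes did. The ratio of Zfp36 to Ptprc was 1.96 in both controls, 0.595 in Nar 1 and 1.18 in Nar 3. That of Ier3 was 0.0949 and 0.152 in Ctrl and 0.0166 and 0.0643 in Nar, and that of Ier2 was 0.445 and 0.513 in Ctrl and 0.158 and 0.349 in Nar. For the other 7 genes the ratios to Ptprc overlapped between groups, and Klf6, Btg2, Ier5 and Nr4a1 had log2 fold changes between -0.03 and 0.19 on the scale set to equal Ptprc, where the median of all tested genes was 0.66.

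Neutrophil markers fell in 10 of 10 genes, where 39.6% of all tested genes did, with a median log2 fold change of -3.67 and a summed FPKM of 1361 to 1638 in Ctrl against 99.6 to 157 in Nar. Of the 6 monocyte markers tested 4 fell, with a median of -2.71 and a sum of 50.0 to 57.2 in Ctrl against 3.09 to 7.54 in Nar. Of the 5 B cell and 5 T cell markers tested limma passed 0, with 0 B cell and 1 T cell markers at an unadjusted p-value under 0.05, against 56.9% of all tested genes, and their medians were -0.34 and -0.47. The B cell sum was 27.5 to 35.6 in Ctrl and 26.9 to 28.5 in Nar, and the T cell sum was 4.55 to 7.24 and 3.08 to 4.46. Of 5 NK cell markers 1 fell, with sums of 18.01 to 19.7 and 4.67 to 9.42. Platelet markers, 0 of 5 past the limma threshold and 1 at an unadjusted p-value under 0.05, summed to 617 and 1994 in Ctrl and to 403 and 510 in Nar. Erythroid markers, 0 of 9 past it and 0 at an unadjusted p-value under 0.05, had a median of 0.57 and 3 of 9 genes higher in both Nar libraries than in both Ctrl libraries, where 1.27% of all tested genes were. Their sum, 6155 to 7166 in Ctrl and 6642 to 6749 in Nar, was mostly Alas2, the first enzyme of haem synthesis in red cells, which had a log2 fold change of -0.0037 (limma adjusted p = 0.989). On median-of-ratios scaling the medians were -2.50 for neutrophil, -1.75 for monocyte, 0.82 for B cell, 0.55 for T cell, -0.23 for NK cell, -0.14 for platelet and 1.73 for erythroid markers. There limma passed 4 neutrophil and 2 monocyte markers as lower, with 0.599% of all tested genes, and 0 of the other 5 lists, of which 2 B cell, 1 T cell and 8 erythroid markers had an unadjusted p-value under 0.05, against 14.9% of all tested genes. No marker of the leukocyte, platelet and erythroid lists was at 0 throughout. With libraries scaled to equal neutrophil markers, 5 of the 9 tested members were higher in Nar past the limma threshold, where 93.1% of all tested genes were, and the median of all tested genes was 2.28. Ier3 was the lowest at -0.07 on the log2 scale. The part of these cell types in the change of the immediate early genes was not tested.

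Of 24 other immediate early genes outside AP-1, 14 were tested and 9 fell, where 39.6% of all tested genes did. Their median log2 fold change was -1.92, and on median-of-ratios scaling it was -0.95, with 0 of the 14 past the limma threshold and 7 of them at an unadjusted p-value under 0.05, against 0.599% and 14.9% of all tested genes. The lowest were Nfkbiz, a nuclear regulator of NF-kappaB, at -3.04 (limma adjusted p = 0.00488), and Trib1, a pseudokinase, at -2.86 (limma adjusted p = 0.00892). The highest were Myc at -0.15 (limma adjusted p = 0.73) and Ppp1r15a, the stress-induced GADD34, at 0.03 (limma adjusted p = 0.964). Ppp1r15a had an FPKM of 6.69 and 10.9 in Ctrl and of 8.21 and 9.2 in Nar, so its groups overlapped.

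Immediate early transcription is driven by the ERK cascade, serum response factor with its ETS partners, and CREB. Of all tested genes 39.6% fell past the limma threshold, and the median log2 fold change of all was -1.07. Serum response factor and its partners fell in 3 of 4 tested genes, Elk4 (-1.54), Srf (-1.42) and Mkl1 (-1.21). Their limma adjusted p-values were 0.0172, 0.0328 and 0.0399, and Elk3 was at -0.53 (limma adjusted p = 0.262). Elk4, Srf and Mkl1 lay 0.47, 0.35 and 0.14 below the typical gene, and Elk3 lay 0.54 above it. Among kinases of the ERK cascade 3 of 8 tested genes fell, a share near the 39.6% of all tested genes, and the list median of -1.01 was near that of all tested genes. Map2k2, the kinase MEK2, was the highest of them at -0.11 (limma adjusted p = 0.852). Of the CREB factors and coactivators the 3 tested genes fell, Ep300 by 1.70, Crtc2 by 1.68 and Atf1 by 1.56 on the log2 scale (limma adjusted p-values of 0.0134, 0.0167 and 0.0225). Ep300, Crtc2 and Atf1 lay 0.63, 0.61 and 0.48 below the typical gene. On median-of-ratios scaling limma passed 0 genes of these 3 lists, and 2 of them, both ERK cascade kinases, had an unadjusted p-value under 0.05, against 14.9% of all tested genes. The list medians were then -0.27 for serum response factor and its partners, 0.004 for the ERK cascade kinases and -0.63 for the CREB list.

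Partners and relatives of the members were counted in the same way. The CCR4-NOT deadenylase that Zfp36 and Btg2 recruit had 8 tested subunits, of which 4 fell, a share not far from the 39.6% of all tested genes, with a median of -1.05 and a range from -1.33 (Cnot7) to -0.68 (Cnot2). Of 9 tested family relatives 6 fell, with a median of -1.45. On median-of-ratios scaling the medians were -0.05 for CCR4-NOT and -0.30 for the relatives, and limma passed 0 genes of either list, with 0 and 1 at an unadjusted p-value under 0.05, against 14.9% of all tested genes. Tob1, an antiproliferative protein related to Btg2, was the lowest of them at -2.66 (limma adjusted p = 0.00519), followed by Klf13 at -1.85 (limma adjusted p = 0.012). Btg3 was the highest at -0.41 (limma adjusted p = 0.523).

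**Figure D5:**
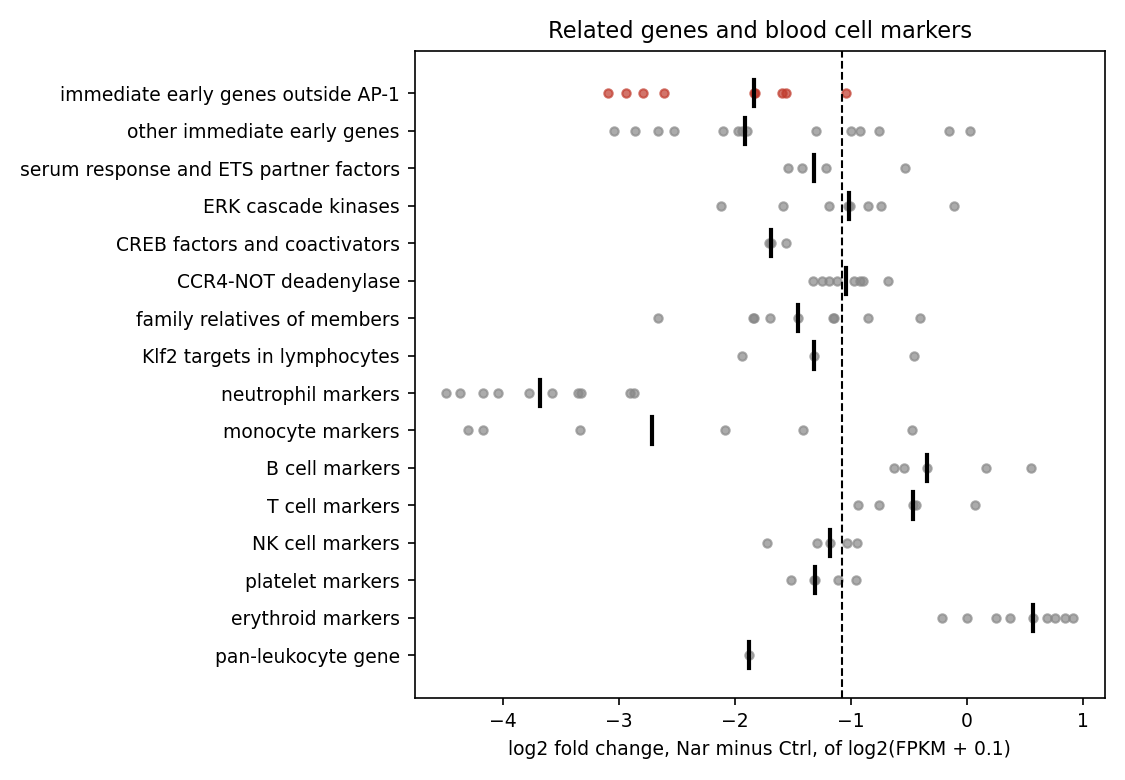
Log2 fold change (Nar minus Ctrl) of each tested gene (points) in lists of related genes and blood cell markers, with a bar at the list median and a dashed line at the median of all tested genes. The immediate early genes outside AP-1 (red) have a median of -1.83 over the 9 tested, between those of neutrophil markers (-3.67) and B cell markers (-0.34).

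Among genes that are not members, the 5 whose log2 values over the 4 libraries, centred on their own mean, lay nearest to the median profile of the 10 members were Ltb4r1, Fam49b, Resf1, Arid3a and Dennd3. Their root mean square differences from that profile were 0.0771, 0.0774, 0.0775, 0.0813 and 0.0858 on the log2 scale. Ltb4r1, the leukotriene B4 receptor of granulocytes, had an FPKM of 2 and 1.62 in Ctrl and of 0.46 and 0.34 in Nar. Within Ctrl, library 1 was the higher for 8 of the 10 members and for 42.9% of all tested genes, and within Nar, library 1 was the higher for 4 of the 10 and for 69.1%.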

How the data were processed

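The 4 blood RNA-seq libraries, 2 Nar and 2 Ctrl, were grouped by the sample labels. According to the paper, bowtie-2 was used for alignment to gene sequences and DEGseq for differential expression. The submitters' processing notes name TopHat2, Cufflinks and GRCm38 without a role, and no versions or annotation are given in the sources used here. The authors deposited FPKM values per gene and library, rounded to 2 decimals. DEGseq needs read numbers and was not repeated. Of 23136 genes listed, 5313 were blank throughout and were left out. Each column belonged to 1 library, and 0 were left over.

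The 5339 genes whose mean FPKM reached 0.5 were compared between groups on log2(FPKM + 0.1) with limma 3.58.1 in R 4.3.3, using eBayes with the trend option and Benjamini-Hochberg adjustment over all of them. The limma steps were tested on simulated data with independent noise, as many rises as falls and no shift of the typical gene. That test checked the steps and says nothing about calls under the shift seen here. The files give no read numbers. The low FPKM values of genes with 1 GENCODE transcript of 300 to 1500 bases gathered at multiples of 1 step, the value of 1 fragment, which was 0.045 to 0.0485 FPKM for a transcript of 1 kilobase, with 51.5% to 61.8% of 85 to 102 values within 0.15 of a whole number, where an even spread gives 30%. Fragment numbers taken from that step are approximate, and no interval is given.

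The members and lists were chosen with earlier results of these data known. Named genes were the 10 members, the 2 lowest and 2 highest of each list, Ptprc, and the 5 genes nearest in profile, and only those of the lists that describe the members' pathways are printed, of which some are not reported here. Gene coordinates and promoters came from RefSeq on GRCm38.p6. Same-numbered libraries deviated from their group means with a correlation of -0.153 across genes, so the numbers were not taken as pairs. Alternatives were the pseudocount, the filter, TPM, removal of haemoglobin genes, scalings to the median of ratios, to Ptprc and to neutrophil markers, limma without the trend, the replicate block and each library left out. Figures were made in Python 3.11.15 using matplotlib 3.10.9.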

Additional observations from a re-analysis of the deposited data

How the results depend on the processing

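Causes were not tested, except where the alternative itself fixes the change. Median-of-ratios scaling left 0 members past the adjusted p-value (4 at an unadjusted p-value under 0.05 in limma, with 14.9% of all tested genes) and 6 of 10 lower in both Nar libraries, and Klf2 turned to 0.12. Ptprc scaling, which put the median of all tested genes at 0.66, left 0 (1 unadjusted, with 6.41% of all) and 3 of 10, and the log2 fold changes of Egr1 (0.16), Ier5 (0.17), Btg2 (0.19) and Klf2 (0.84) reversed. Neutrophil marker scaling left 0 of 10 lower in both Nar libraries and turned the direction, with 5 members past the test as higher, as were 93.1% of all tested genes, whose median was 2.28. It reversed Egr1 (1.20), Ier2 (0.72), Ier5 (1.77), Nr4a1 (1.65), Btg2 (1.86), Klf2 (2.59), Klf6 (1.65), Zfp36 (0.54) and Csrnp1 (0.69). Removing haemoglobin genes left 4 members past the test and 3.02% of all tested genes lower past it. Without the filter limma passed 0 of the 10 (9 unadjusted) and 0 of 16382 genes (30.4% unadjusted), and the difference of the members' median from that of all genes was -1.26. With the filter raised to 5 FPKM, which 2 members reach, 1 passed, against 10.7% of all tested genes. With each library left out in turn, 0 to 3 members passed, where 0% to 4.76% of all tested genes did as lower, and the difference of medians ran from -1.27 to -0.40. The pseudocounts, TPM and limma without the trend each left 7 members past the test, with 33.5% to 42.2% of all tested genes lower past it. With the replicate block, whose numbers do not pair the libraries, 8 passed (33.8% of all tested genes), and with the numbers crossed, an alternative chosen after seeing the data, 9 passed (60.1%). Depth limits Egr1, at 0.07 and 0.11 FPKM in Nar, and Ier3, at about 2.01 and 3.89 fragments.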
